A study of Ovis aries with 6 samples.

Results

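Genes that copy DNA, repair it and carry cells through interphase were examined in granulosa cells of Hu sheep (Ovis aries) after knockdown of INHBA, the gene for the beta A chain from which both activin A and inhibin A are built. The set was taken from a deposited table of genes that the authors had called changed. It holds the genes whose KEGG annotation names the cell cycle, DNA replication, or mismatch, base excision, nucleotide excision, homologous recombination or Fanconi anemia repair, together with RRM2 and UHRF1. Genes with mainly mitotic roles, cyclin D2 and several arrest genes were removed by name. This left 44 of the 1620 genes in the table. By annotation, 21 of the 44 belong to the cell cycle, 7 to DNA replication, 9 to the Fanconi anemia pathway, 7 to homologous recombination, 6 to nucleotide excision repair and 4 each to base excision and mismatch repair, and 11 genes belong to at least 2 of these pathways.

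Both groups were primary granulosa cells, the somatic cells around the oocyte, cultured from follicles of at least 3 mm of sexually mature animals. One group (siINHBA, 3 libraries) received a small interfering RNA against INHBA and the other (siNC, 3 libraries) a negative-control RNA, both delivered with a lipid reagent, and RNA was taken 24 h later. The labels give no genotype beyond the breed and do not say whether libraries came from separate animals or cultures, so every p-value reflects library-to-library spread alone, and that spread may be technical. As a knockdown, the treatment left part of the target message: the siNC libraries held 21.2, 21.8 and 18.5 FPKM of INHBA (fragments scaled to transcript length and library depth), and the siINHBA libraries 8.02, 6.51 and 7.54 FPKM. The groups did not overlap (log2 fold change -1.49, SE 0.14, edgeR adjusted p = 3.9e-06). The size of the fall depended on how libraries were scaled: it was -0.41 with the TMM factors of edgeR (adjusted p = 0.018) and -0.80 with library size set to the listed counts. An exact two-sided permutation test gave p = 0.1, which is as low as 3 libraries against 3 can go.

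A dividing cell licenses its replication origins in G1 by loading the MCM helicase, which CDC6 helps to place on DNA. Cyclin D and cyclin E kinases then release E2F transcription factors from the retinoblastoma family, and E2F switches on the genes for the replication machinery and for deoxynucleotide supply. Mismatch repair, homologous recombination and the Fanconi anemia pathway act largely on replicating or newly replicated DNA. Granulosa cells divide rapidly in growing follicles and leave the cycle as they turn into luteal cells.

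Expression after INHBA knockdown was below control for 37 of the 44 genes and above it for 7, with adjusted p at or below 0.0018 for each of the 44 (quasi-likelihood test of edgeR, threshold 0.05). The whole table passed as well (100% of 1620 genes), since each gene had been selected on this same contrast, so passing says nothing further about these genes. The lower genes made up 84.1% of the set, beside 65.7% of the table, and the higher genes 15.9%, beside 34.3%. Their changes were of ordinary size for the table: the lower genes had a median log2 fold change of -1.46, beside -1.40 for all lower genes, and the higher genes one of 1.24, beside 1.48. In bulk RNA, fewer cells in a given phase and less RNA per cell cannot be told apart.

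How many genes counted as lower depended on how the libraries were scaled. The values given here use the sequencing depth of each library, recovered by dividing counts by FPKM. Scaling by edgeR's TMM factors, which centre the table on its typical gene, raised the median log2 fold change of all genes by 1.09. Under TMM 33 of the 37 lower genes stayed below 0, and E2F1, SKP2, USP1 and CCNB3 moved to between 0.00 and 0.08. The same share among all lower genes of the table was not computed, so staying below 0 does not set these genes apart. Only 9 of the 44 were then called lower (20.5%, beside 22.5% of the table), namely MCM3, MCM5, RRM2, UHRF1, CDK6, ESPL1, EXO1, RAD54L and NEXMIF. With library size set to the listed counts, 32 were called lower (55.5% of the table), and 9 when DESeq2 set the size factors (22.2% of the table). The 7 higher genes were called higher under each of these scalings, as was 34.3% of the table.

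**Figure D1:**
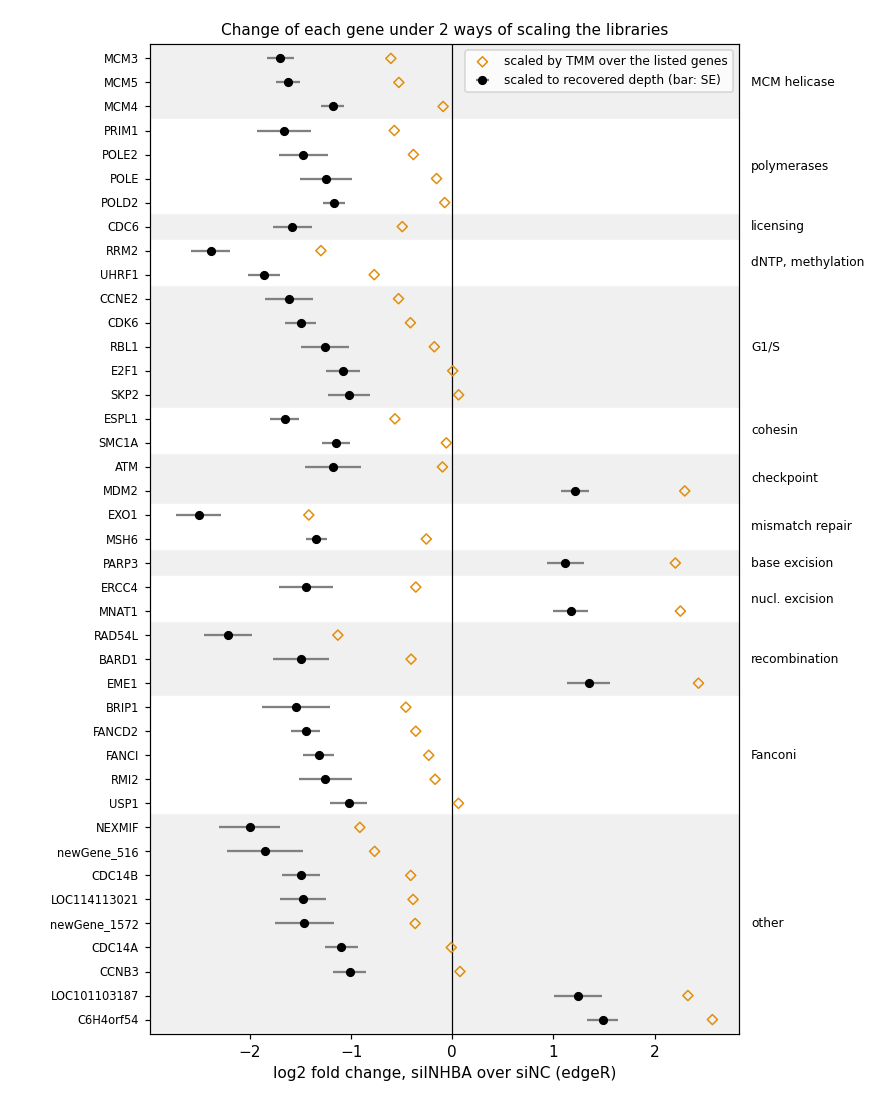
Log2 fold change of 41 of the 44 genes (siINHBA over siNC, horizontal axis) grouped by role, with filled points for libraries scaled to recovered depth (bars: SE of the edgeR fit, 3 libraries a group) and open diamonds for TMM scaling over the listed genes. The diamonds lie about 1.09 to the right of the points, which brings 4 of the lower genes past 0, while the higher genes stay to the right of 0 with both.

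The 44 genes covered a wide range of levels. In siNC their mean ran from 0.285 FPKM for BRIP1 to 24.6 FPKM for POLD2, with a median of 3.73 FPKM. There were 12 genes above 10 FPKM and 4 below 1 FPKM. Expression was separated between the groups for all 44 genes, which means that the highest library of one group lay below the lowest library of the other. Over all listed genes, 65.6% were separated with siINHBA lower and 34.3% with siINHBA higher. The narrowest gap was that of ATM, 1.36-fold, and the widest that of EXO1, 3.86-fold.

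**Figure D2:**
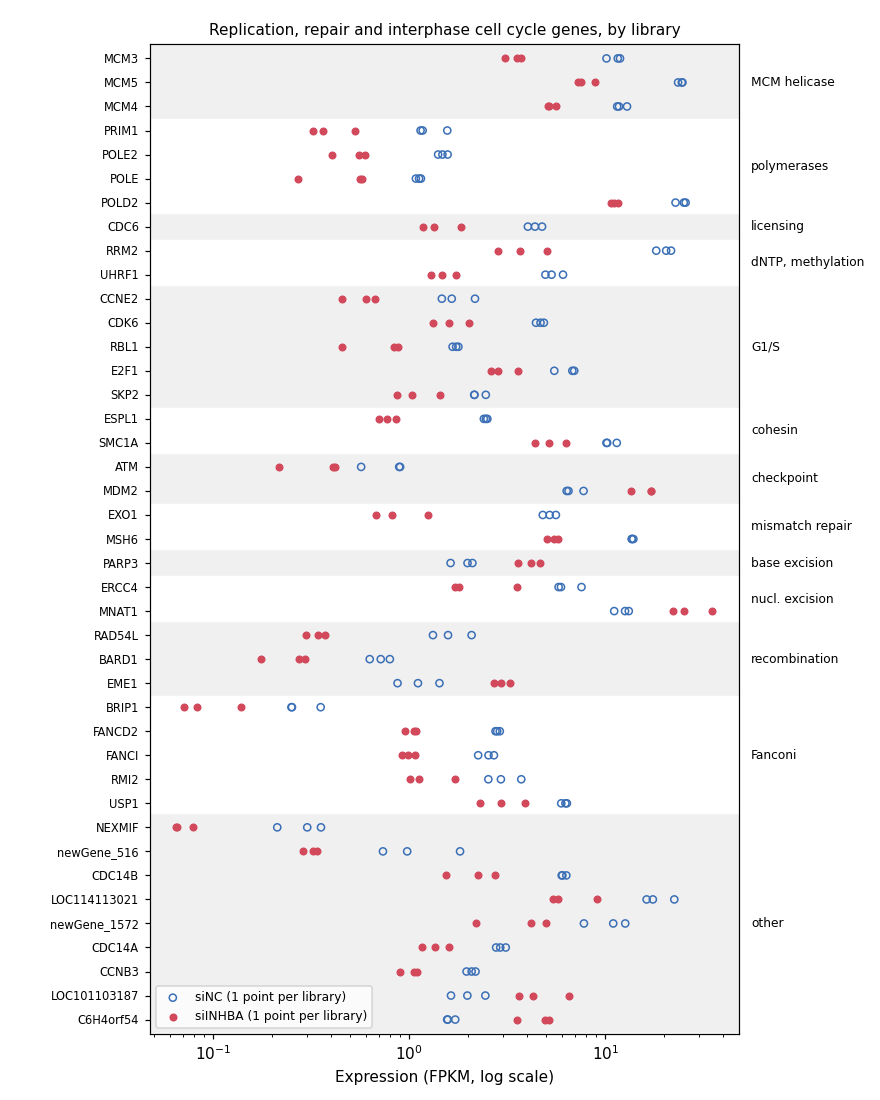
Expression of 41 of the 44 genes in every library (FPKM, log axis), grouped by role, with open circles for the 3 siNC and filled circles for the 3 siINHBA libraries. The groups are separated in every row, with siINHBA on the right only for MDM2, PARP3, MNAT1, EME1, LOC101103187 and C6H4orf54.

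With recovered depth, the listed genes of the replicative helicase fell unevenly. Only genes that the authors called have values here, so the rest of the complex could not be examined. MCM3, MCM4 and MCM5 are subunits of the hexamer that unwinds DNA at the fork. MCM5 was at 24.6, 24.8 and 23.5 FPKM in siNC and at 7.27, 7.56 and 8.86 FPKM in siINHBA. MCM3 was at 11.6, 11.9 and 10.2 FPKM in siNC and at 3.08, 3.54 and 3.73 FPKM in siINHBA. For MCM4 the values were 11.5, 12.9 and 11.8 FPKM in siNC against 5.18, 5.12 and 5.64 FPKM in siINHBA. MCM3 and MCM5 were therefore left at 30.8% and 32.5% of control and MCM4 at 44.0%. The log2 fold change was -1.70 (SE 0.13) for MCM3, -1.62 (SE 0.12) for MCM5 and -1.18 (SE 0.11) for MCM4, each with an edgeR adjusted p of at most 5.2e-06. The table held 4 of the 12 names in a list of helicase, GINS and CDC45 genes; the fourth was GINS3, a GINS subunit of the active helicase, with a log2 fold change of -1.04 that became 0.04 under TMM. MCM4 was at -0.09 under TMM, where MCM3 and MCM5 still passed.

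The listed subunits of the DNA polymerases were lower as well. The list of polymerase, clamp, ligase and RPA genes had 28 names, of which the table held 4, all lower with recovered depth and under TMM, where 0 of the 4 passed with edgeR (0 of the 4 had an unadjusted p under 0.05, and 0 passed with DESeq2 and its own size factors). PRIM1, the primase subunit that makes the RNA primer, was at 1.17, 1.56 and 1.14 FPKM in siNC and at 0.532, 0.364 and 0.324 FPKM in siINHBA. POLE2, an accessory subunit of the leading-strand polymerase epsilon, was at 1.40, 1.48 and 1.57 FPKM and then at 0.554, 0.405 and 0.594 FPKM. POLE, the catalytic subunit of that enzyme, was even in siNC at 1.12, 1.15 and 1.08 FPKM and uneven in siINHBA, with 0.272 FPKM in the first library against 0.574 and 0.560 FPKM in the other two. POLD2, a subunit of polymerase delta, was the most abundant of the 44 genes in siNC and the most even in siINHBA, where its mean was 11.1 ± 0.43 FPKM (SD, n = 3). The changes on the log2 scale were -1.66 for PRIM1, -1.47 for POLE2, -1.25 for POLE and -1.17 for POLD2. Without the first siINHBA library POLE was at -0.98, the weak end of a leave-one-out range that reached -1.41.

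Origin licensing was represented by CDC6, the 1 gene held of 11 listed names. It was at 4.76, 4.03 and 4.38 FPKM in siNC and at 1.83, 1.18 and 1.34 FPKM in siINHBA, 33.0% of control. Its log2 fold change was -1.58 (SE 0.19), with an adjusted p of 2.2e-05 from edgeR. Under TMM it was -0.49 and did not pass.

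Deoxynucleotide supply and maintenance methylation included some of the deepest falls. RRM2, the regulated subunit of ribonucleotide reductase, was at 20.5, 21.7 and 18.2 FPKM in siNC and at 5.03, 2.84 and 3.66 FPKM in siINHBA. That left 19.1% of the control level (log2 fold change -2.39, SE 0.20), and the lowest siNC library was still 3.62 times the highest siINHBA library. UHRF1 recruits the maintenance DNA methyltransferase to hemimethylated DNA behind the fork. Its level was 5.33, 6.09 and 4.95 FPKM in siNC against 1.74, 1.47 and 1.29 FPKM in siINHBA, 27.5% of control and a log2 fold change of -1.86 (SE 0.16). TK1, the thymidine kinase of the salvage pathway, is on the same list of 9 names without being one of the 44 genes, and fell from 14.1 ± 1.08 to 4.69 ± 1.07 FPKM (mean ± SD, n = 3). All 3 listed genes passed as lower under TMM too.

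The G1/S regulators comprised a cyclin, a kinase, a pocket protein, E2F1 and a ubiquitin ligase subunit. The list had 27 names, of which the table held 7, all lower with recovered depth; under TMM 5 were lower, of which 3 passed, and E2F1 and SKP2 turned to just above 0. CDK6, a cyclin D-dependent kinase, was at 4.44, 4.87 and 4.68 FPKM in siNC and at 1.60, 2.02 and 1.32 FPKM in siINHBA. CCNE2, one of the cyclin E genes that activate CDK2, was at 1.47, 1.65 and 2.17 FPKM and then at 0.668, 0.601 and 0.453 FPKM. RBL1 encodes p107, a pocket protein that binds E2F. It was even in siNC at 1.74, 1.66 and 1.78 FPKM and lower in siINHBA at 0.838, 0.875 and 0.452 FPKM, with the third library well below the other two. The fold changes in log2 were -1.62 (SE 0.24) for CCNE2, -1.50 (SE 0.16) for CDK6 and -1.26 (SE 0.24) for RBL1. E2F1 and SKP2, the latter the F-box subunit that targets CDK inhibitors for degradation, had the smallest falls of the 5, at -1.08 and -1.02 on the log2 scale. E2F7 and E2F8, repressors of the E2F family and E2F targets themselves, are on the list without being among the 44 genes. They had larger log2 fold changes of -2.23 (SE 0.24) and -2.31 (SE 0.25; edgeR adjusted p of at most 1.1e-05 for both), and both were past -1.1 under TMM.

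Among cohesin genes ESPL1, the separase that cuts cohesin at anaphase, was at 2.46, 2.40 and 2.50 FPKM in siNC and at 0.771, 0.702 and 0.859 FPKM in siINHBA, 31.6% of control and a log2 fold change of -1.66 (SE 0.14). SMC1A, a core subunit of the ring, was at 10.1, 11.5 and 10.2 FPKM and then at 4.40, 6.34 and 5.19 FPKM. These 2 genes were held of 8 listed names. ESPL1 passed under TMM (log2 fold change -0.57, edgeR adjusted p = 0.0075), whereas SMC1A was at -0.06 there. For SMC1A the deposited FPKM and counts differed somewhat: the mean went from 10.6 ± 0.73 to 5.31 ± 0.98 FPKM (SD, n = 3), while the counts gave a 2.22-fold fall (log2 fold change -1.15).

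The checkpoint group went both ways. MDM2, a ubiquitin ligase, was at 7.75, 6.36 and 6.50 FPKM in siNC and at 17.2, 17.2 and 13.5 FPKM in siINHBA. LOC101103187, which the deposited annotation names as Mdm2-like, was at 1.63, 1.98 and 2.45 FPKM and then at 6.51, 4.29 and 3.61 FPKM. The rise in log2 was 1.21 (SE 0.14) for MDM2 and 1.24 (SE 0.24) for LOC101103187. Reads of such similar genes can be assigned to either one, so the split between MDM2 and LOC101103187 is uncertain. ATM, the kinase that responds to double-strand breaks, went the other way, from 0.569, 0.889 and 0.898 FPKM to 0.417, 0.408 and 0.216 FPKM, and had the highest adjusted p of the 44 genes (log2 fold change -1.18, SE 0.28, edgeR adjusted p = 0.0018). CLSPN, the mediator that lets ATR activate CHEK1, is on the list of 19 names but not among the 44 genes, and had a log2 fold change of -1.52. With it the table held 4 names of the list, 2 higher and 2 lower. LOC101103187 is not on the list. Besides MDM2, the other higher name is among the genes not reported here by name. ATM and CLSPN stayed below 0 under TMM without passing.

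The listed mismatch repair genes fell. EXO1, the exonuclease that removes the mismatched strand, had the largest fall of the 44 genes by log2 fold change, from 5.21, 5.60 and 4.80 FPKM in siNC to 1.24, 0.675 and 0.821 FPKM in siINHBA (log2 fold change -2.51, SE 0.22, edgeR adjusted p = 3.3e-06). MSH6, which takes part in recognising mismatches, was at 13.9, 13.7 and 13.7 FPKM and then at 5.47, 5.71 and 5.07 FPKM. It was left at 39.4% of control with little spread in either group, a log2 fold change of -1.34 (SE 0.11). The table held 3 of 7 listed names, all lower. All 3 were below 0 under TMM, and EXO1 alone passed there.

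The excision repair genes went both ways. PARP3, a mono-ADP-ribosyltransferase that responds to strand breaks, was the 1 gene held of 21 base excision repair names and rose from 1.98, 1.63 and 2.10 FPKM to 3.60, 4.64 and 4.19 FPKM (log2 fold change 1.12, SE 0.18, edgeR adjusted p = 1.4e-04). Of 25 nucleotide excision repair names the table held 2. MNAT1, the assembly factor of the CDK-activating kinase within TFIIH, was at 13.2, 11.1 and 12.6 FPKM in siNC and at 35.2, 22.1 and 25.3 FPKM in siINHBA. ERCC4, also called XPF, cuts on the 5′ side of a lesion. It was at 5.78, 7.57 and 5.95 FPKM and then at 1.71, 3.56 and 1.80 FPKM, the least even siINHBA values of the 44 genes by coefficient of variation (44.3%), with the second library well above the other two. Log2 fold changes were 1.17 (SE 0.18) for MNAT1 and -1.45 (SE 0.27) for ERCC4, and without the second siINHBA library that of ERCC4 lay at the strong end of a range from -1.87 to -1.27. Under TMM ERCC4 was at -0.36 and did not pass.

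In homologous recombination 3 genes fell and 1 rose. RAD54L, a motor protein that acts on chromatin during strand exchange, was at 2.08, 1.32 and 1.58 FPKM in siNC and at 0.370, 0.298 and 0.344 FPKM in siINHBA, 20.3% of control. BARD1, the partner of BRCA1, was at 0.629, 0.716 and 0.797 FPKM and then at 0.275, 0.175 and 0.293 FPKM. EME1, the partner of the MUS81 nuclease that cuts joined DNA molecules, rose from 1.43, 0.872 and 1.11 FPKM to 2.72, 2.93 and 3.25 FPKM. Log2 fold changes were -2.22 (SE 0.24) for RAD54L, -1.50 (SE 0.27) for BARD1 and 1.35 (SE 0.21) for EME1. The list had 26 names, of which the table held 4. Under TMM the 3 lower genes stayed below 0 and RAD54L passed.

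The Fanconi anemia pathway clears crosslinks that block the fork. FANCD2 and FANCI form the dimer that is ubiquitinated when a fork stalls. FANCD2 was at 2.90, 2.76 and 2.81 FPKM in siNC and at 1.05, 0.951 and 1.09 FPKM in siINHBA. FANCI was at 2.54, 2.71 and 2.25 FPKM and then at 0.921, 1.08 and 0.989 FPKM. BRIP1, a helicase that binds BRCA1, was the least abundant of the 44 genes in siNC, with 43, 62 and 45 reads there and 23, 15 and 14 reads in siINHBA. Log2 fold changes were -1.45 (SE 0.14) for FANCD2, -1.32 (SE 0.15) for FANCI and -1.54 (SE 0.33) for BRIP1. RMI2, part of the complex that dissolves double Holliday junctions, had a log2 fold change of -1.25 (SE 0.26). USP1, which removes ubiquitin from FANCD2, had one of -1.02 (SE 0.18). The list had 28 names, of which the table held these 5. All 5 were lower with recovered depth; under TMM 4 were lower and USP1 was at 0.06, and 0 passed with edgeR (1 had an unadjusted p under 0.05, and 0 passed with DESeq2 and its own size factors).

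The last 9 genes came in through the annotation without belonging to one of the lists, and not all of them fit the description of the set. NEXMIF, known as a neurite extension and migration factor, was annotated to the Fanconi anemia pathway by a database match to DNA polymerase zeta with an e-value of 8.7e-22. C6H4orf54, an uncharacterised gene, was annotated to nucleotide excision repair by a match to the XPA repair protein with an e-value of 8.6e-24. These were the weakest matches of the 44 genes. NEXMIF was at 0.212, 0.355 and 0.302 FPKM in siNC and at 0.0649, 0.0657 and 0.0789 FPKM in siINHBA, and C6H4orf54 rose from 1.57, 1.72 and 1.56 FPKM to 5.14, 4.92 and 3.55 FPKM. In log2 units the change was -2.00 (SE 0.30) for NEXMIF and 1.49 (SE 0.15) for C6H4orf54. Ovis_aries_newGene_516 and Ovis_aries_newGene_1572, which carry no symbol, were annotated as cyclin B1, a mitotic cyclin that the set otherwise leaves out by its symbol. Their reads may be shared with CCNB1, so their separate values are uncertain. Ovis_aries_newGene_516 was at 1.82, 0.977 and 0.735 FPKM and then at 0.288, 0.323 and 0.338 FPKM, with the first siNC library well above the other two. Log2 fold changes were -1.85 (SE 0.37) for Ovis_aries_newGene_516 and -1.46 (SE 0.29) for Ovis_aries_newGene_1572. Without these 4 genes 34 lower and 6 higher genes remained, with a median log2 fold change of -1.33 against -1.37 for all 44.

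The others of these 9 genes regulate the cycle. CDC14B, a phosphatase that opposes cyclin-dependent kinases, was at 6.00, 6.05 and 6.33 FPKM in siNC and at 2.73, 2.24 and 1.53 FPKM in siINHBA, a log2 fold change of -1.50 (SE 0.19). Its paralogue CDC14A had a log2 fold change of -1.10 (SE 0.16), which was -0.01 under TMM. CCNB3, a B-type cyclin with roles in meiosis in the mouse, had the smallest fall of the 44 genes, -1.01 (SE 0.16), and was at 0.08 under TMM. LOC114113021, which the deposited annotation names as CDKN2A-like, an inhibitor of CDK4 and CDK6, was among the abundant genes of the set and was lower at -1.47 (SE 0.23), from 18.8 ± 3.31 to 6.72 ± 2.01 FPKM (mean ± SD, n = 3).

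Ratios between partner genes within a library do not depend on how libraries are scaled, and compare how far the partners moved. There were 6 pairs, chosen after the values were seen from genes whose products work together. For 3 of the 6 the groups did not overlap. The share among other pairs of listed genes was not computed, so this count does not set these pairs apart. The log2 ratio of MCM3 to MCM4 went from -0.11 ± 0.11 in siNC to -0.63 ± 0.11 in siINHBA, and that of MCM5 to MCM4 from 1.01 ± 0.08 to 0.57 ± 0.08 (mean ± SD, n = 3), so MCM4 fell less than both partners. The ratio of ESPL1 to SMC1A fell by 0.65 on the log2 scale in FPKM. Counts gave a smaller gap, with log2 fold changes of -1.66 for ESPL1 and -1.15 for SMC1A. Each of these 3 pairs had an exact permutation p of 0.1, as low as this design can go. After Benjamini-Hochberg adjustment over the 6 pairs it was 0.2, so none can pass at this size.

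In the other 3 pairs the libraries of the groups overlapped. MCM3 to MCM5 differed by -0.08 on the log2 scale, FANCD2 to FANCI by -0.13 and POLE2 to POLE by -0.21. The exact permutation p was 0.2 or higher for each. POLE2 to POLE ranged from -0.50 to 1.03 across the siINHBA libraries, so a difference in that pair was not detectable. For MCM3 to MCM5 the SD was 0.08 in siNC and 0.09 in siINHBA, about the size of the difference itself.

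**Figure D3:**
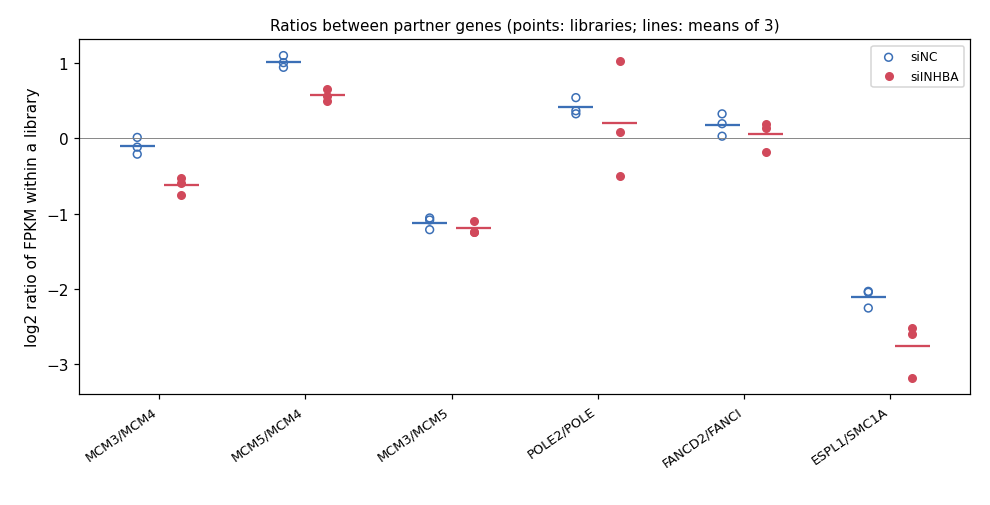
Log2 ratio of FPKM between partner genes within each library (vertical axis) for 6 pairs, with open circles for siNC, filled circles for siINHBA and lines for the mean of 3 libraries. The 3 siINHBA points lie below all siNC points for MCM3/MCM4, MCM5/MCM4 and ESPL1/SMC1A, and overlap them in the other pairs.

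The siINHBA libraries varied more than the controls. The median coefficient of variation over the 44 genes was 8.35% in siNC and 19.1% in siINHBA, beside 8.81% and 17.4% over the whole table. The libraries did not share one order: of the 37 lower genes, 9 were lowest in the first siINHBA library, 14 in the second and 14 in the third. Over all lower genes of the table the shares were 37.1%, 23.3% and 39.6%, and the difference was not tested. RRM2, EXO1 and CDC6 were lowest in the second library, MCM3, MCM5 and POLE in the first, and CDC14B and USP1 in the third. Summed over the 37 lower genes, expression was 241.6, 255.7 and 245.6 FPKM in siNC against 98.4, 89.0 and 86.0 FPKM in siINHBA. Summed over the 7 higher genes it was 45.0, 39.9 and 42.0 FPKM in siNC against 113.6, 102.3 and 103.5 FPKM in siINHBA. Abundant genes weigh more in these sums, such as POLD2, MCM5 and RRM2 among the lower genes in siNC and MNAT1 among the higher genes.

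**Figure D4:**
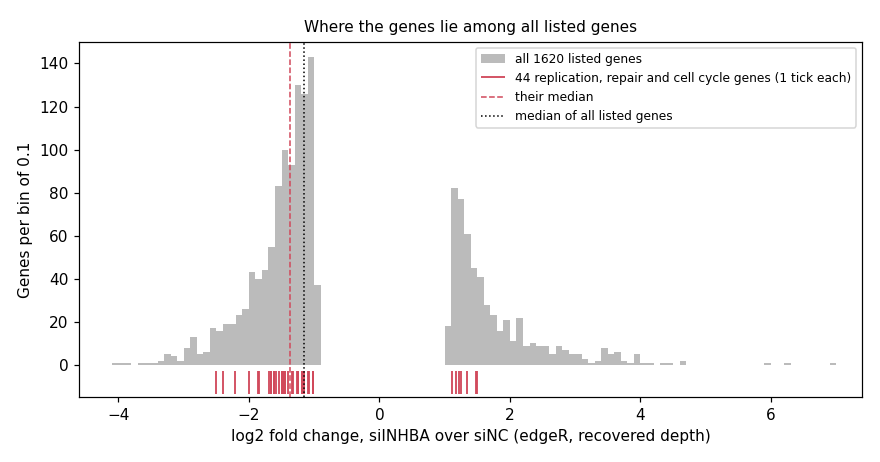
Distribution of log2 fold changes (siINHBA over siNC, edgeR with recovered depth) of all 1620 listed genes in bins of 0.1, with a tick below the axis for each of the 44 genes. The ticks lie inside the range of the table, and the empty middle reflects that only called genes are listed; the dashed line marks the median of the 44 genes, -1.37, and the dotted line that of all genes, -1.16.

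The mitotic genes left out of the set give a point of reference. Of the 17 names removed 15 were annotated to these pathways, 11 of them mitotic, and all 11 were lower, with a median log2 fold change of -2.11 and a range from -2.58 for TTK to -1.26 for MAD2L1. Only EXO1, RRM2 and RAD54L of the 37 lower genes had falls as large as that median. The difference between these groups of genes was not tested.

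Counts over the listed genes summed to between 2781548 and 2948524 in siNC and between 1590871 and 2042924 in siINHBA, and recovered depth, relative to the first siNC library, lay between 0.95 and 1.17. The 44 genes took 1.15% to 1.35% of the listed counts in each library, and single genes had from 14 to 4600 reads per library, and the largest SE of a log2 fold change was 0.37, that of Ovis_aries_newGene_516, which had 16 to 102 reads. Of 10 granulosa cell markers the table held 3. INHA and NR5A1 were lower, with log2 fold changes of -1.79 and -1.30, and HSD17B1 was higher at 1.41. Under TMM these kept their signs, at -0.70, -0.20 and 2.50, and NR5A1 did not pass. Their summed level was 36.5 to 38.7 FPKM in siNC and 13.1 to 18.8 FPKM in siINHBA, and 0 of the 3 were at 0. The cell type could not be checked further on a table of called genes. Of 34 markers of other ovarian cell types it held 8. Beside 65.7% of the listed genes lower with recovered depth, all 8 were lower with either scaling. The share of the table below 0 under TMM was not computed. Summed over the 8, the level was 103.1 to 104.3 FPKM in siNC and 30.0 to 35.7 FPKM in siINHBA, and 0 of the 8 were at 0. Most of the siNC sum came from the stromal and muscle markers PDGFRB and DES (63.0 to 65.9 FPKM) and the epithelial markers KRT19 and UPK1B (31.9 to 33.6 FPKM). The part of either marker list in the results was not tested. For all 44 genes the authors' deposited table gave a log2 fold change of the same sign, at most 0.26 away from the one given here. Both rest on the same counts and the genes were listed for that change, so a shared sign is no independent check.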

How the data were processed

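Poly(A) RNA of 6 granulosa cell libraries was sequenced, per the labels' protocols. The sources used here do not give aligner, counter or genome build. Per the file headers, the authors deposited raw read counts, FPKM values, adjusted p-values (FDR) and log2 fold changes of the genes they called; no FDR exceeded 0.00895 and no absolute log2 fold change was under 1.00. Of the table, 4 lines without a complete gene were left out. The other deposited sheets, sections of the same genes, were not used.

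Counts of all 1620 genes went through the quasi-likelihood test of edgeR 4.0.16 under R 4.3.3 without a block (filterByExpr at a minimum count of 10 removed no gene), with Benjamini-Hochberg adjustment over the table and a threshold of 0.05; SE is the absolute log2 fold change over the square root of F. Library depth was the median ratio of count to FPKM, relative to the first siNC library, over 702 genes with over 200 reads in every library; TMM would assume that most listed genes do not change. Recovered depth leaves composition uncorrected. Replicates differed by more than sampling noise (mean chi-square per gene 5.33 to 47.4 between pairs). Scripts were tested on simulated data. The alternatives used DESeq2 1.42.0, limma 3.58.1 with pseudocounts of 1 or 0.1 FPKM, other filters and scalings, a replicate block and leaving out each library. The 44 genes and the lists were chosen with earlier results of these data known. Values of 3 of the 44 genes are not reported here by name, though counts, medians and sums include them; library values are given for the 3 largest changes of each role and for genes against the main direction. GINS3, TK1, E2F7, E2F8 and CLSPN come from the lists. Promoter sequences were not used here.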

Additional observations from a re-analysis of the deposited data

How the results depend on the processing

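The scaling decided most. TMM over the listed genes gave 9 lower genes in place of 37, a median log2 fold change of the 44 genes of -0.28 in place of -1.37, and 919 called genes instead of 1620. With size factors of its own, DESeq2 gave 9, -0.29 and 914, with CDC6 among the 9 where TMM had NEXMIF. Both centre the table on its typical gene by construction. Under them USP1 (0.060 and 0.057), E2F1 (0.0041 and 0.00023), SKP2 (0.062 and 0.060) and CCNB3 (0.076 and 0.077) turned positive. Scaling to the listed counts gave a median of -0.68, with 32 lower genes. INHBA, at -1.49 with recovered depth, was at -0.41 under both TMM and DESeq2 with its own size factors and at -0.80 with listed counts, and passed in each. limma gave medians of -0.84 with log2(FPKM + 1) and -1.23 with log2(FPKM + 0.1), as a pseudocount shrinks low genes. With at least 5 FPKM on average, limma tested only 13 of the 44 genes and called all 13, 10 lower and 3 higher. Among the 44, the smaller counts thus come from the filter and not from lost calls. The median of those tested was -1.20, and 611 genes of the table were called. Every other alternative kept 37 lower and 7 higher genes, except the one without the 4 weakly matched or unnamed genes (34 and 6), added after seeing the data. Of 673 values of single genes 612 kept direction and call, 53 no longer passed and 8 reversed (above). This total mixes unlike settings. TMM and DESeq2 with its own size factors each kept 16 of 44, with 24 no longer passing and 4 reversed. Dropping the filter could change nothing, as it had removed no gene. The genes had been selected on this same contrast, so the total does not measure how firm the calls are.

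Without each library in turn 37 genes were lower and 7 higher, the median lay between -1.42 and -1.30, 1618 to 1620 genes were called and INHBA lay between -1.64 and -1.38. Deviations from the group means of equally numbered libraries correlated at 0.04, 0.18 and -0.02 over genes, so the numbers were not taken as pairs; a replicate block gave 37 lower and 7 higher genes, a median of -1.38 and INHBA at -1.51. Depth limits the genes with few reads, such as BRIP1 and NEXMIF.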

Other observations

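Replication and repair genes outside the 44 were also listed. The KOG class for replication, recombination and repair in the deposited annotation held 8 further genes. With recovered depth 5 of them were lower and 3 higher. Among all listed genes 65.7% were lower and 34.3% higher with this scaling, so the split does not set these 8 genes apart. They were picked after the values were seen. ESCO2, which acetylates cohesin during S phase, fell from 1.35 ± 0.11 to 0.33 ± 0.12 FPKM (mean ± SD, n = 3), a log2 fold change of -2.04 (SE 0.27). RECQL4, a helicase of replication initiation, and GEN1, which cuts Holliday junctions, had log2 fold changes of -1.54 and -1.34. CHTF18, part of a loader of the sliding clamp, went from 4.05 ± 0.44 to 2.01 ± 0.21 FPKM (mean ± SD, n = 3), and DCLRE1A, a nuclease of crosslink repair, had a log2 fold change of -1.04. Under TMM they turned to 0.09 and 0.05, while the other 3 lower genes stayed below 0. The genes that rose were POLM, a polymerase of DNA end joining (log2 fold change 1.11, SE 0.15), NUDT13 (1.14, SE 0.20) and ISG20, an interferon-induced exonuclease with antiviral activity (2.13, SE 0.34). All 8 passed the edgeR test, as did every listed gene. EME1, one of the 44 genes, and GEN1, whose products both take part in cutting joined DNA molecules, moved in opposite directions.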
